A study of Mus musculus with 12 samples.

Results

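The genes described here are 47 mouse genes of the cell division cycle, from replication licensing through S phase to mitosis, measured by RNA-Seq in liver. They were taken as the features of the deposited table whose gene name is on a list of 47 names, and all 47 were found among its 55385 features. By role, 18 are S phase genes (9 for licensing and the replicative helicase, 6 for nucleotide supply and the replication fork, 3 that drive the G1 to S transition), 28 are mitosis genes, and Ccnd1, a G1 cyclin, is in neither class. The study knocked down mGULL, a mouse long noncoding RNA, in the liver with an adenovirus and asked whether hGULL, its human counterpart, makes up for the loss. The animals were 12 male C57BL/6 mice, aged 7 weeks when injected and killed on day 7, with 4 mice in each of 3 groups. Every mouse, controls included, carried adenovirus: Lac with pAdV5 in Ad-Ctrl, sh-mGULL with pAdV5 in Ad-shmGULL, and sh-mGULL with hGULL in Ad-shmGULL+hGULL (the rescue mice). The labels and the account of this experiment in the study's methods name the route as intravitreal. Another part of those methods describes adenovirus given into the veins behind the eye. The level of mGULL was not analysed here, so the knockdown itself is taken from the labels.

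In the usual course of the cycle, cyclin D and cyclin E kinases release E2F transcription factors. These factors switch on the genes for loading the MCM helicase, making deoxynucleotides and copying DNA. In quiescent cells the DREAM complex, of which MuvB is the core, holds cell cycle genes down. Later in the cycle MuvB, now with B-MYB and FOXM1, switches on the genes for mitosis, many of them through promoter elements called CHR and through CCAAT boxes bound by NF-Y. Most hepatocytes of an adult liver are quiescent, and they return to the cycle after injury or loss of tissue, when these genes rise in an order that follows the phases.

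RefSeq promoters of the build GRCm38.p6 were given for 39 of the 47 genes, and the 150 bases before the start are shown for 4 called genes, Mcm6 and Rrm2 of S phase and Plk1 and Hmmr of mitosis, and for the mitotic regulators Cdk1 and Cdc20. Capitals mark matches to motif words on either strand. The E2F words were TTTCCCGC, TTTCGCGC, TTTGCCGC and TTTGGCGC, the CHR words were TTTGAA and TTTAAA, and the CCAAT box was CCAAT, which reads ATTGG on the other strand. The stretches lie at chr1:128359706-128359855, minus strand for Mcm6, chr12:24708104-24708253, plus strand for Rrm2, chr10:69352913-69353062, minus strand for Cdk1, chr4:118437344-118437493, minus strand for Cdc20, chr7:122159285-122159434, plus strand for Plk1 and chr11:40733438-40733587, minus strand for Hmmr.
Mcm6: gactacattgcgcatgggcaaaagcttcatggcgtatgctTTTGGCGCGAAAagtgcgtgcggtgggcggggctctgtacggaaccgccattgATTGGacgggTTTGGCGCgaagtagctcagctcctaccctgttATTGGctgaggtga
Rrm2: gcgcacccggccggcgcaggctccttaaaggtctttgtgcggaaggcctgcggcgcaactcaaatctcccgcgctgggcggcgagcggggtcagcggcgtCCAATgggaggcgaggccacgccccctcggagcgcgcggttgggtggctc
Cdk1: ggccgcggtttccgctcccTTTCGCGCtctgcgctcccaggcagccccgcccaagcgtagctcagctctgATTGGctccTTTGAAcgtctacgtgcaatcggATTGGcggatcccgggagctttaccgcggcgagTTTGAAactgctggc
Cdc20: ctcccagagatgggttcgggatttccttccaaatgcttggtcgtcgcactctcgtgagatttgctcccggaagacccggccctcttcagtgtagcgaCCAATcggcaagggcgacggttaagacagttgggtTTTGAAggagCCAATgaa
Plk1: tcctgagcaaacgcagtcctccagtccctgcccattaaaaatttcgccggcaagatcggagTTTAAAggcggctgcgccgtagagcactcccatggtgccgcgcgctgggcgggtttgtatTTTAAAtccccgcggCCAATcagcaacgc
Hmmr: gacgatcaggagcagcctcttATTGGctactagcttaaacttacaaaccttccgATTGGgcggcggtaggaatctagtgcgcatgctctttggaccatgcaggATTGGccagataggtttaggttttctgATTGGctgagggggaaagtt

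In the Mcm6 stretch, the run of capitals from base -110 to base -99 before the start holds 2 overlapping E2F words on opposite strands, and a further E2F word begins at base -47. Cdk1 held an E2F word as well as 2 CHR words, Plk1 held 2 CHR words and a CCAAT box, and Hmmr held CCAAT boxes with neither of the other motifs. In the 250 bases before the start, an E2F word was found in 5 of 15 S phase genes (Cdc6, Mcm5, Mcm6, Mcm7 and Uhrf1) and in 1 of 24 mitosis genes (Cdk1), against 1.86% of all 32851 promoters of that length. A CHR word was found in 4 of 15 S phase genes and 13 of 24 mitosis genes, against 25.2% of all promoters. The CCAAT box was found in 9 of 15 S phase genes and 20 of 24 mitosis genes, against 33.8% of all promoters. A gene with 2 listed promoters counted when either held the word, and 4 genes had 2. These matches describe letters only, and no binding was measured.

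**Figure D1:**
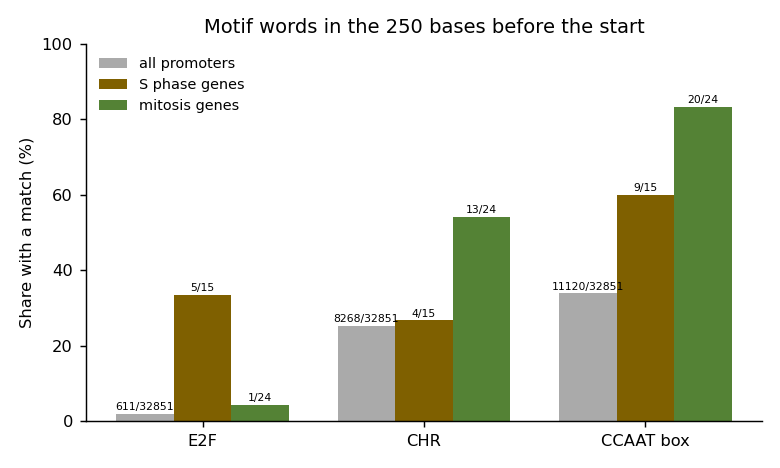
Share of promoters (vertical axis, percent) with an E2F word, a CHR word or a CCAAT box in the 250 bases before the start, for all RefSeq promoters (grey), S phase genes (brown) and mitosis genes (green), with counts above the bars. E2F words were found in 5 of 15 S phase genes and 1 of 24 mitosis genes, and CHR words in 4 of 15 and 13 of 24.

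All 47 genes were measured in every mouse, with no value at 0, and all passed the filter of a mean of at least 1 TPM (a relative transcript abundance corrected for gene length and library total). Mean levels over the 12 mice ran from 1.07 TPM for Cdc6, which loads the MCM helicase, to 49.3 TPM for Rrm2, the regulated subunit of ribonucleotide reductase, with a median of 8.46 TPM. Because every library sums to 1000000 TPM, read numbers and depth are unknown, and the spread between mice is the error used throughout. From 15525 to 16929 features exceeded 1 TPM per mouse. The labels number the mice of each group from 1 to 4, and values are given below in that order.

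The spread between mice of a group was wider for these genes than for genes in general. The median coefficient of variation of the 47 genes was 38.6% in Ad-Ctrl, 28.5% in Ad-shmGULL and 23.9% in Ad-shmGULL+hGULL, while the median over all tested features was 15.3%, 18.9% and 10.2%. The genes moved together from mouse to mouse. Ad-Ctrl replicate 1 held the highest value of its group for 45 of the 47 genes (the other 2 were highest in replicate 3), Ad-shmGULL replicate 2 for 43 and Ad-shmGULL+hGULL replicate 2 for 45. Features above 1 TPM were also the most numerous of their groups in Ad-Ctrl replicate 1 (16426) and Ad-shmGULL replicate 2 (16929). In Ad-shmGULL+hGULL they were most numerous in replicate 1 (16727), with 16614 in replicate 2. Ad-Ctrl replicate 1 enters every comparison with control below. Numbers of genes past each threshold are also given without it, but fold changes without it only for Rrm2 and Mcm6.

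**Figure D2:**
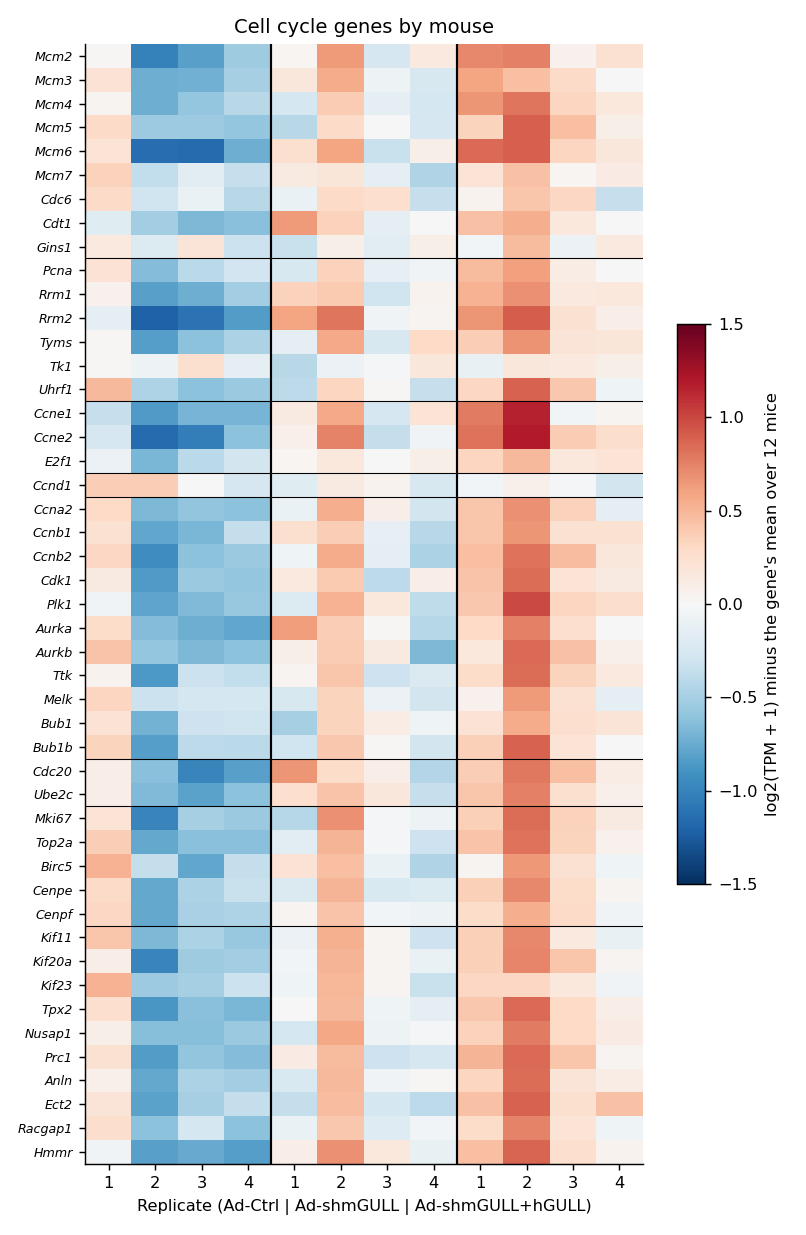
Level of each of the 47 genes (lines, ordered by role) in each of the 12 mice (columns, replicates 1 to 4 of each group from Ad-Ctrl on the left to Ad-shmGULL+hGULL on the right), as log2(TPM + 1) minus that gene's mean over the 12 mice (colour scale, log2 units). Ad-Ctrl replicate 1 stands above the other 3 controls for 45 of 47 genes, and Ad-shmGULL+hGULL replicate 2 is the highest of its group for 45.

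After mGULL knockdown, 1 of the 47 genes, Rrm2, was higher than in controls at a Benjamini-Hochberg adjusted p under 0.05 in limma's moderated test, where 2.44% of all 16378 tested features were called higher. The threshold in the study's methods asks for an unadjusted P under 0.05 and a change of more than 0.5 on the log2 scale. Here it was applied to the limma fit of log2(TPM + 1), whereas the study started from counted reads. By this threshold 17 of 47 were higher (5.35% of all tested features) and 0 lower (2.3%). These were Mcm2, Mcm3, Mcm6, Cdt1, Rrm1, Rrm2, Tyms, Ccne1, Ccne2, Cdk1, Plk1, Aurka, Cdc20, Ube2c, Kif20a, Tpx2 and Hmmr. The 4 knockdown mice lay above all 4 control mice for 4 genes, Cdt1, Rrm2, Ccne1 and E2f1 (6.93% of all tested features lay apart in this direction). On the log2(TPM + 1) scale used for every fold change here, the median log2 fold change of the 47 genes was 0.43, with values from -0.18 to 1.16 and 44 of 47 above 0, beside a median of 0.09 over all tested features.

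With hGULL added to the knockdown, none of the 47 genes was lower than after knockdown alone by either threshold. At an adjusted p under 0.05, 0 of 47 genes differed between Ad-shmGULL+hGULL and Ad-shmGULL in limma (0% of all tested features were called), and 3 of 47 had an unadjusted P under 0.05, beside 10.7% of all tested features. Those 3, Mcm4, Mcm5 and Ect2, were higher in Ad-shmGULL+hGULL by the study's threshold (2.33% of all tested features), and 0 were lower (0.672%). Only E2f1 among the 47 had its 4 rescue mice above all 4 knockdown mice (5.4% of all features). The median log2 fold change was 0.31, and 46 of 47 values were above 0, beside 0.09 over all features. The number past the study's threshold was 13 without Ad-shmGULL replicate 2, 7 without Ad-shmGULL+hGULL replicate 4, 2 without Ad-shmGULL+hGULL replicate 1, 1 without Ad-shmGULL replicate 1, and 0 without Ad-shmGULL replicate 4 or Ad-shmGULL+hGULL replicate 2. Over all tested features the share past that threshold was 4.4%, 2.33%, 1.93%, 1.53%, 2.91% and 2.07% in the same order.

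Against control virus, Ad-shmGULL+hGULL mice had the higher level for 46 of 47 genes, with a median log2 fold change of 0.79 and values from -0.19 to 1.43. At an adjusted p under 0.05, 9 of 47 were higher: Mcm4, Mcm6, Cdt1, Rrm2, Ccne1, Ccne2, E2f1, Plk1 and Hmmr (2.12% of all tested features were called higher). By the study's threshold 39 of 47 were higher (6.84% of all features) and 0 lower (0.641%), and 17 of 47 had non-overlapping groups (21.4% of all features). The 8 genes short of the study's threshold were Birc5, Ccnd1, Cdc6, Gins1, Kif23, Mcm7, Melk and Tk1. The 3 comparisons share mice, each group entering 2 of them, so their values are not independent of each other.

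Part of the fold change of these genes was shared with all tested features. Over all tested features the median change was 0.17 log2 units in Ad-shmGULL+hGULL against Ad-Ctrl. The 20 most abundant features took 24.65 to 26.60% of all TPM in Ad-shmGULL+hGULL and 29.40 to 32.91% in Ad-Ctrl. In Ad-shmGULL they took 26.28 to 34.24%, which overlapped both other groups. Relative to the median change of 0.17, the 47 genes' median was 0.61. Relative to the corresponding medians it was 0.35 for knockdown against control and 0.21 for Ad-shmGULL+hGULL against Ad-shmGULL. When libraries were scaled by the median of ratios, 0 of 47 genes were called at an adjusted p under 0.05 against control (0.0611% of all features, with 37 of 47 at an unadjusted P under 0.05 beside 13.8% of all features), while 31 passed the study's threshold (2.94%). With that scaling Rrm2 was still called after knockdown (2.03% of all features), and 11 genes passed the study's threshold (3.71%).

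**Figure D3:**
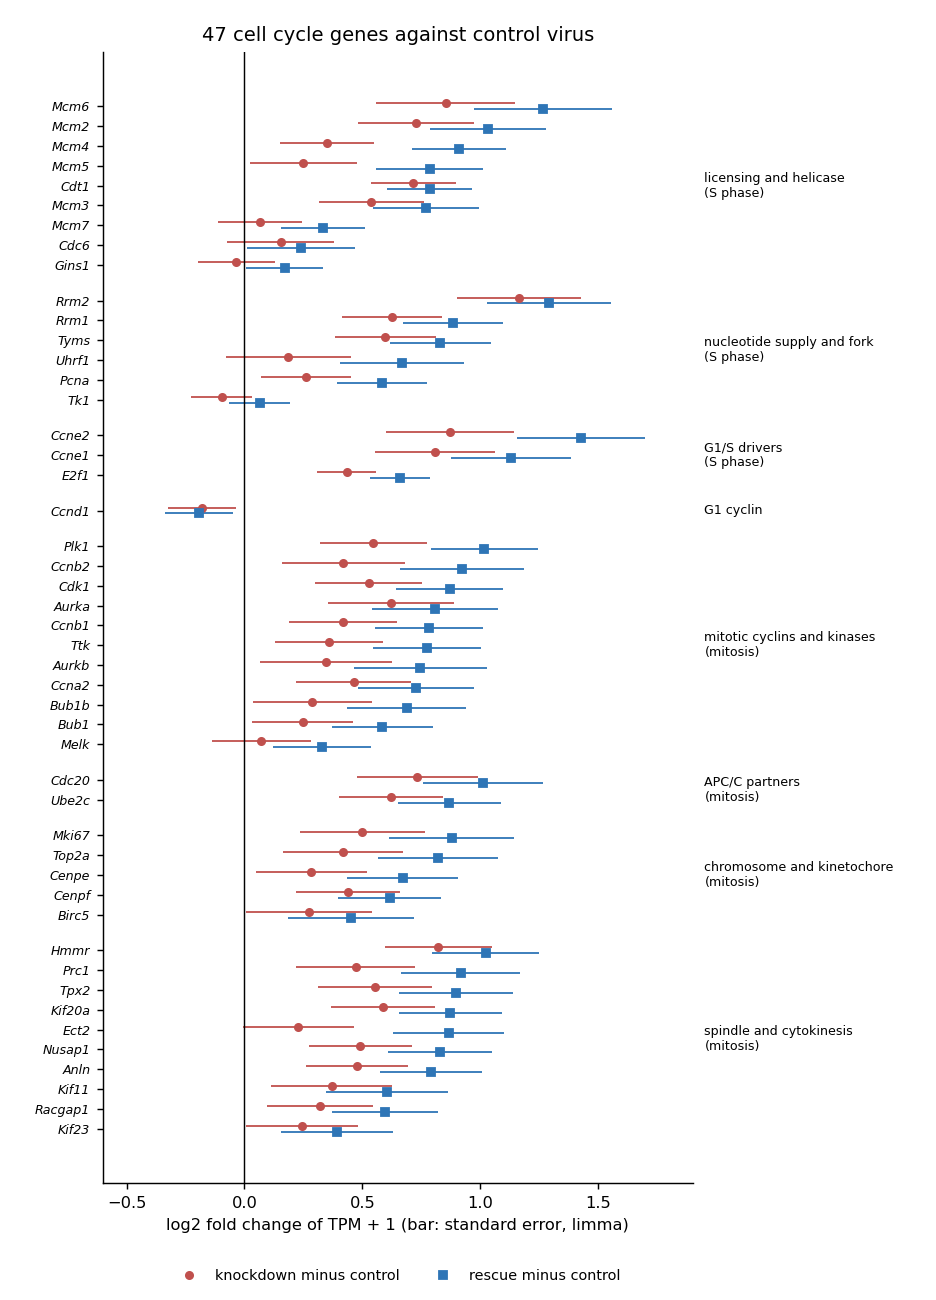
Log2 fold change of TPM + 1 (horizontal axis, bars for the standard error from limma) for the 47 genes, grouped by role and ordered by the change in Ad-shmGULL+hGULL, for Ad-shmGULL (red circles) and Ad-shmGULL+hGULL (blue squares) against Ad-Ctrl, 4 mice a group. Values against control run from -0.18 to 1.16 after knockdown and from -0.19 to 1.43 in Ad-shmGULL+hGULL, where Ccnd1 is the gene below 0.

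Among the 9 licensing and helicase genes, Mcm4, Mcm6 and Cdt1 were called higher in Ad-shmGULL+hGULL against control (2.12% of all tested features). Of the 9, 6 passed the study's threshold (6.84% of all features), and the median log2 fold change was 0.79. Mcm6 (ENSMUSG00000026355.11), a subunit of the MCM2 to MCM7 helicase and the gene with the overlapping E2F words above, measured 31, 11.6, 11.4 and 15.8 TPM in Ad-Ctrl, 31.7, 40.9, 21.03 and 28.4 TPM in Ad-shmGULL and 48.9, 50.6, 33.6 and 30.3 TPM in Ad-shmGULL+hGULL. The 3 lower controls lay below every other mouse, and the fourth, replicate 1, lay among the knockdown mice. Its log2 fold change was 0.85 (SE 0.29, adjusted p = 0.125) after knockdown and 1.26 (SE 0.29, adjusted p = 0.0478) in Ad-shmGULL+hGULL. Mcm4, another helicase subunit, measured 13.6, 7.54, 8.45 and 9.64 TPM in Ad-Ctrl, 10.8, 17.5, 11.8 and 10.8 TPM in Ad-shmGULL and 21.5, 23.8, 16.7 and 14.8 TPM in Ad-shmGULL+hGULL. Its 4 rescue mice lay above all controls, and its log2 fold change was 0.35 (SE 0.20, adjusted p = 0.3502) after knockdown, 0.56 (SE 0.20, adjusted p = 0.402) from knockdown to rescue and 0.91 (SE 0.20, adjusted p = 0.0432) against control. Cdt1, the licensing factor that brings the helicase to origins, measured 9.199, 7.02, 6.22 and 6.46 TPM in Ad-Ctrl, 16.9, 13.7, 9.49 and 10.6 TPM in Ad-shmGULL and 14.6, 15.8, 11.8 and 10.6 TPM in Ad-shmGULL+hGULL. Both groups with the knockdown virus lay wholly above the controls, with log2 fold changes of 0.72 (SE 0.18, adjusted p = 0.0503) and 0.79 (SE 0.18, adjusted p = 0.0471), while between the 2 groups the value was 0.07 (SE 0.18).

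The other licensing and helicase genes gave no call in limma. Mcm2, of the same helicase ring, measured 8.14, 3.45, 4.15 and 5.23 TPM in Ad-Ctrl, 8.24, 13.02, 6.56 and 8.98 TPM in Ad-shmGULL and 13.9, 14.3, 8.47 and 9.58 TPM in Ad-shmGULL+hGULL, and the rescue mice did not overlap the controls although the adjusted p was 0.0504 for a log2 fold change of 1.03. Mcm5 measured 12.1, 6.39, 6.36 and 6.23 TPM in Ad-Ctrl, 7.04, 12.1, 9.85 and 8.01 TPM in Ad-shmGULL and 12.6, 19.03, 13.7 and 10.4 TPM in Ad-shmGULL+hGULL, with Ad-Ctrl replicate 1 far above the other 3 controls and a log2 fold change of 0.79 (SE 0.23, adjusted p = 0.0765) against control. Mcm3, also of the ring, had log2 fold changes of 0.54 and 0.77 (SE 0.22, adjusted p = 0.0774). Mcm7, the remaining measured subunit, had log2 fold changes of 0.07 (SE 0.18) and 0.33 (SE 0.18, adjusted p = 0.255). Cdc6, which loads the helicase, and Gins1, of the GINS complex that joins it at the fork, had values of 0.24 (SE 0.23, adjusted p = 0.521) and 0.17 (SE 0.16, adjusted p = 0.521) against control.

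Of the 6 nucleotide supply and fork genes, Rrm2 was called in both comparisons with control (2.44% and 2.12% of all tested features). In Ad-shmGULL+hGULL, 5 of the 6 passed the study's threshold (6.84% of all features). Rrm2 (ENSMUSG00000020649.11) measured 40.5, 18.6, 20.1 and 24.4 TPM in Ad-Ctrl, 67.1, 78.05, 42.9 and 45.7 TPM in Ad-shmGULL and 70.8, 84.1, 52.1 and 47.5 TPM in Ad-shmGULL+hGULL. All 8 mice given the knockdown virus lay above all 4 controls, and the 2 groups given it overlapped each other. Group means were 25.9 ± 10.01 TPM (SD, n = 4), 58.4 ± 16.97 TPM (SD, n = 4) and 63.6 ± 16.97 TPM (SD, n = 4), and the log2 fold change was 1.16 (SE 0.26, adjusted p = 0.0363) after knockdown, 1.29 (SE 0.26, adjusted p = 0.0414) in Ad-shmGULL+hGULL against control and 0.13 (SE 0.26, adjusted p = 0.868) between the groups with knockdown. Over 8 alternatives of processing, Rrm2 was called after knockdown under 5, with adjusted p from 0.0248 to 0.0897. Its partner Rrm1, the large subunit, had smaller values of 0.62 (SE 0.21, adjusted p = 0.118) and 0.88 (SE 0.21, adjusted p = 0.0504) against control.

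Tyms, the thymidylate synthase, measured 6.24, 3.03, 3.696 and 4.15 TPM in Ad-Ctrl, 5.495, 9.63, 5.05 and 7.84 TPM in Ad-shmGULL and 8.26, 10.4, 7.21 and 7.11 TPM in Ad-shmGULL+hGULL. The rescue group lay above the controls without overlap, at a log2 fold change of 0.83 (SE 0.21, adjusted p = 0.0575). Pcna, the sliding clamp of the replication fork, measured 39.9, 21.6, 25.7 and 27.9 TPM in Ad-Ctrl, 28.98, 43.7, 31.4 and 32.97 TPM in Ad-shmGULL and 47.9, 53.3, 37.2 and 34.3 TPM in Ad-shmGULL+hGULL. Its groups overlapped, with a log2 fold change of 0.58 (SE 0.19, adjusted p = 0.1) against control. Uhrf1, which reads hemimethylated DNA behind the fork, measured 8.31, 3.86, 3.37 and 3.55 TPM in Ad-Ctrl, 4.08, 7.33, 5.77 and 4.26 TPM in Ad-shmGULL and 7.25, 11.3, 7.85 and 5.39 TPM in Ad-shmGULL+hGULL, and only Ad-Ctrl replicate 1 among the controls reached the range of the other groups (log2 fold change 0.67, SE 0.26, adjusted p = 0.148). Tk1, the salvage thymidine kinase, measured 16.2, 15.2, 19.1 and 14.4 TPM in Ad-Ctrl, 11.8, 15.01, 15.8 and 18.2 TPM in Ad-shmGULL and 14.8, 18.2, 17.9 and 17.1 TPM in Ad-shmGULL+hGULL. Its groups overlapped, and its log2 fold change of 0.06 (SE 0.13, adjusted p = 0.773) in Ad-shmGULL+hGULL against control was the smallest of the S phase genes and was below 0 under the 2 other scalings tried. After knockdown the value was -0.10 (SE 0.13, adjusted p = 0.729).

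All 3 drivers of the G1 to S transition were called higher in Ad-shmGULL+hGULL against control (2.12% of all tested features). Their groups did not overlap in either comparison with control except for Ccne2 after knockdown. Of all features, 6.93% lay apart upwards after knockdown and 21.4% in Ad-shmGULL+hGULL. Ccne2 (ENSMUSG00000028212.16), a cyclin E that activates CDK2, measured 6.69, 3.103, 3.45 and 4.997 TPM in Ad-Ctrl, 8.68, 14.4, 6.14 and 7.83 TPM in Ad-shmGULL and 15.1, 19.9, 10.9 and 9.98 TPM in Ad-shmGULL+hGULL. Against control it had the largest log2 fold change of the 47 genes in Ad-shmGULL+hGULL, 1.43 (SE 0.27, adjusted p = 0.0388), and was 0.87 (SE 0.27, adjusted p = 0.0965) after knockdown. Ccne1, the other cyclin E, measured 6.16, 4.07, 4.66 and 4.66 TPM in Ad-Ctrl, 9.04, 12.6, 6.66 and 9.498 TPM in Ad-shmGULL and 14.7, 19.4, 7.86 and 8.42 TPM in Ad-shmGULL+hGULL. The 4 controls lay within a narrow range below every other mouse, whereas the rescue mice fell into a higher pair and a lower pair, with log2 fold changes of 0.81 (SE 0.26, adjusted p = 0.0978) and 1.13 (SE 0.26, adjusted p = 0.0461). E2f1, the transcription factor that opens the S phase program, measured 7.697, 4.73, 6.004 and 6.63 TPM in Ad-Ctrl, 8.43, 9.296, 8.299 and 8.82 TPM in Ad-shmGULL and 10.6, 12, 9.36 and 9.63 TPM in Ad-shmGULL+hGULL. Its groups were ordered without overlap, control lowest and Ad-shmGULL+hGULL highest, the log2 fold changes being 0.43 (SE 0.13, adjusted p = 0.0789), 0.23 (SE 0.13, adjusted p = 0.5301) and 0.66 (SE 0.13, adjusted p = 0.0389).

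Ccnd1, cyclin D1, whose kinase partners act ahead of cyclin E, measured 21.5, 21.5, 16.6 and 13.7 TPM in Ad-Ctrl, 14.4, 18.2, 17.1 and 13.8 TPM in Ad-shmGULL and 15.9, 17.4, 16.1 and 13.4 TPM in Ad-shmGULL+hGULL. It was the gene of the 47 with a mean log2 level below control in both other groups, at log2 fold changes of -0.18 (SE 0.14, adjusted p = 0.5299) and -0.19 (SE 0.14, adjusted p = 0.417), and none of its groups stood apart.

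**Figure D4:**
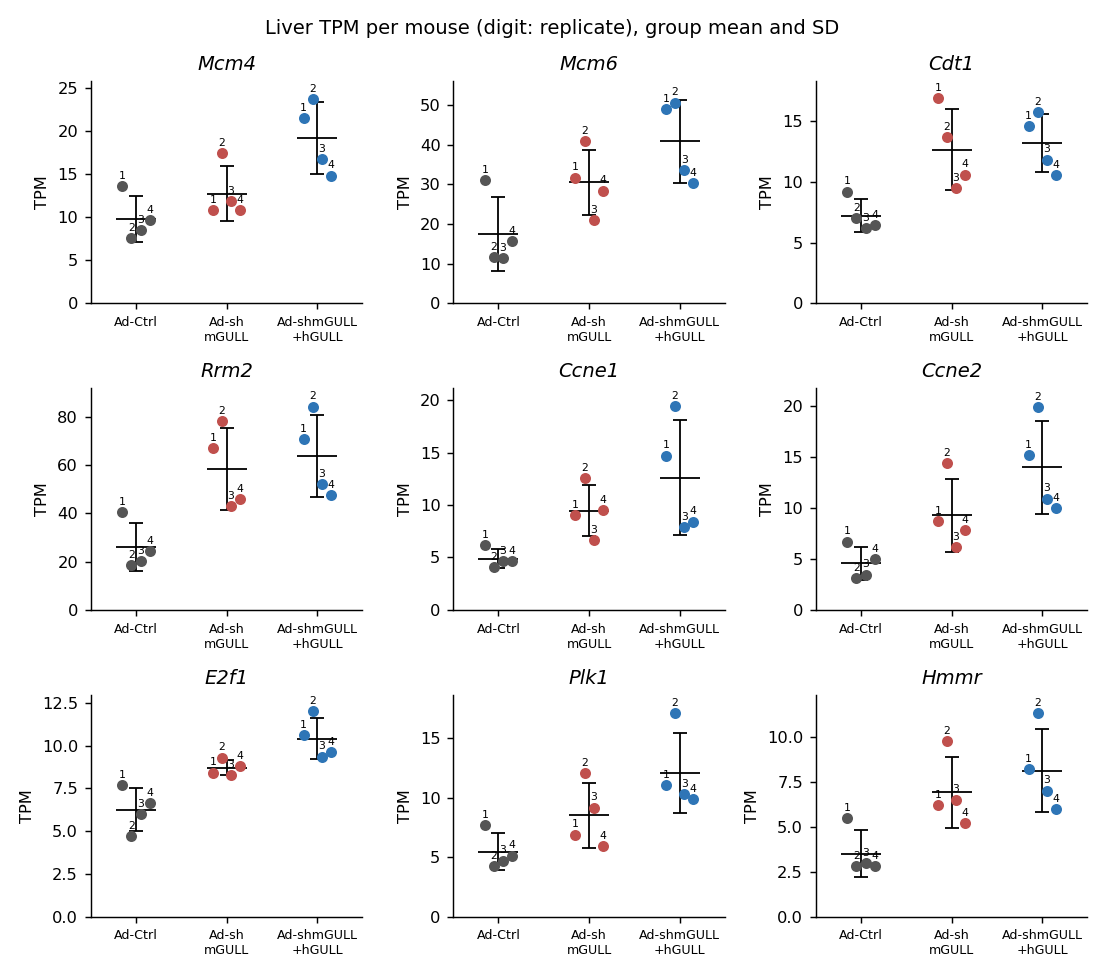
TPM per mouse (vertical axes from 0, digits for replicates) of the 9 genes with an adjusted p under 0.05 in a comparison, with the group mean and SD (n = 4) as bars. Rrm2 is higher in all 8 mice with the knockdown virus than in the 4 controls, and Ad-Ctrl replicate 1 is the highest control for all 9 genes.

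Of the 11 mitotic cyclins and kinases, Plk1 was called in Ad-shmGULL+hGULL against control (2.12% of all tested features). There 10 of 11 passed the study's threshold (6.84% of all features). Plk1 (ENSMUSG00000030867.7), the polo kinase that acts at centrosomes, kinetochores and mitotic exit, measured 7.72, 4.24, 4.71 and 5.12 TPM in Ad-Ctrl, 6.896, 12.03, 9.16 and 5.95 TPM in Ad-shmGULL and 11.03, 17.1, 10.3 and 9.87 TPM in Ad-shmGULL+hGULL. Rescue mice lay above all controls while knockdown mice overlapped both, with log2 fold changes of 0.55 (SE 0.23, adjusted p = 0.196) and 1.02 (SE 0.23, adjusted p = 0.0441). Cdk1, the kinase that drives entry into mitosis, measured 8.45, 3.78, 4.85 and 4.78 TPM in Ad-Ctrl, 8.54, 10.3, 5.58 and 8.29 TPM in Ad-shmGULL and 10.6, 14.5, 8.99 and 8.52 TPM in Ad-shmGULL+hGULL. Its rescue and control mice did not overlap, and the values were 0.53 (SE 0.23, adjusted p = 0.212) and 0.87 (SE 0.23, adjusted p = 0.0605), short of the adjusted threshold. Its partner cyclin Ccnb1 measured 6.13, 2.54, 2.78 and 3.78 TPM in Ad-Ctrl, 6.23, 6.87, 4.58 and 3.56 TPM in Ad-shmGULL and 7.14, 8.69, 6.15 and 6.12 TPM in Ad-shmGULL+hGULL, with 0.78 (SE 0.23, adjusted p = 0.0774) against control. Cyclin A2, encoded by Ccna2 and active in both S phase and mitosis, measured 11.3, 5.28, 5.68 and 5.56 TPM in Ad-Ctrl, 8.34, 13.7, 9.73 and 7.32 TPM in Ad-shmGULL and 12.4, 15.2, 11.7 and 8.18 TPM in Ad-shmGULL+hGULL, again with replicate 1 standing above the other controls (log2 fold change 0.73, SE 0.24, adjusted p = 0.104). Of the other kinases and checkpoint genes, Ccnb2, Aurka, Aurkb, Ttk, Bub1 and Bub1b passed the study's threshold against control in Ad-shmGULL+hGULL, and Melk had a log2 fold change of 0.33 (SE 0.21, adjusted p = 0.335).

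Chromosome and kinetochore genes gave no call at an adjusted p under 0.05 in limma. In Ad-shmGULL+hGULL against control, 4 of 5 had an unadjusted P under 0.05 (25.3% of all tested features). The same 4 passed the study's threshold (6.84% of all features). Mki67, the antigen Ki-67 that coats mitotic chromosomes and marks cycling cells, measured 21.3, 8.704, 12.7 and 12.1 TPM in Ad-Ctrl, 13.3, 30.2, 18.01 and 17.3 TPM in Ad-shmGULL and 23.7, 33.6, 23.5 and 20.1 TPM in Ad-shmGULL+hGULL. Of the 4 rescue mice, 3 exceeded every control, and the log2 fold change was 0.50 (SE 0.27, adjusted p = 0.318) after knockdown and 0.88 (SE 0.27, adjusted p = 0.0857) in Ad-shmGULL+hGULL. Top2a, the topoisomerase that untangles sister chromatids, measured 16.2, 6.87, 7.67 and 7.69 TPM in Ad-Ctrl, 10.96, 18.1, 12.3 and 9.75 TPM in Ad-shmGULL and 16.9, 22.5, 15.9 and 12.97 TPM in Ad-shmGULL+hGULL, with log2 fold changes of 0.42 (SE 0.25, adjusted p = 0.383) and 0.82 (SE 0.25, adjusted p = 0.0875). Birc5, survivin of the chromosomal passenger complex, measured 9.32, 4.63, 3.19 and 4.64 TPM in Ad-Ctrl, 7.37, 8.84, 5.72 and 4.28 TPM in Ad-shmGULL and 6.38, 10.3, 7.41 and 5.87 TPM in Ad-shmGULL+hGULL. Its groups overlapped throughout (log2 fold change 0.45, SE 0.27, adjusted p = 0.303). The kinetochore genes Cenpe and Cenpf had values of 0.67 and 0.61 against control. The partners of the anaphase-promoting complex, the activator Cdc20 and the ubiquitin-conjugating enzyme Ube2c, both passed the study's threshold in both comparisons with control, at 0.73 and 0.62 after knockdown and 1.01 (SE 0.26, adjusted p = 0.0549) and 0.87 (SE 0.22, adjusted p = 0.0555) in Ad-shmGULL+hGULL.

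Of the 10 spindle and cytokinesis genes, Hmmr was called in Ad-shmGULL+hGULL against control (2.12% of all tested features). There 9 passed the study's threshold (6.84% of all features). Hmmr (ENSMUSG00000020330.16), which associates with the mitotic spindle, measured 5.48, 2.81, 2.97 and 2.801 TPM in Ad-Ctrl, 6.199, 9.78, 6.53 and 5.23 TPM in Ad-shmGULL and 8.21, 11.3, 7.02 and 5.98 TPM in Ad-shmGULL+hGULL. The rescue mice lay above all controls, and 1 knockdown mouse lay under Ad-Ctrl replicate 1. Its log2 fold change was 0.82 (SE 0.23, adjusted p = 0.0674) after knockdown, the largest of the 28 mitosis genes, and 1.02 (SE 0.23, adjusted p = 0.0441) in Ad-shmGULL+hGULL. Ect2, an activator of RhoA at the cleavage furrow, differed between the groups with knockdown by 0.64 (SE 0.23, adjusted p = 0.404). Prc1, Tpx2, Kif20a, Nusap1 and Anln, which bundle, nucleate or move along microtubules or build the furrow, lay between 0.79 and 0.92 against control in Ad-shmGULL+hGULL. Kif11 and Racgap1 had 0.60 and 0.60, and Kif23, of the centralspindlin complex, had 0.39 (SE 0.24, adjusted p = 0.313).

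S phase and mitosis genes had much the same order of mice. The mean of log2(TPM + 1) over the 18 S phase genes was 3.63, 2.87, 3.01 and 3.07 in the 4 controls, 3.56, 3.96, 3.43 and 3.51 after knockdown, and 3.999, 4.25, 3.76 and 3.64 in Ad-shmGULL+hGULL. Over the 28 mitosis genes it was 3.06, 2.10, 2.27 and 2.30 in controls, 2.80, 3.30, 2.79 and 2.58 after knockdown, and 3.17, 3.59, 3.12 and 2.90 in Ad-shmGULL+hGULL. For both classes the 3 lowest of the 12 mice were Ad-Ctrl replicates 2, 3 and 4, and Ad-shmGULL+hGULL replicate 2 was the highest. Group means were 3.14 ± 0.335, 3.61 ± 0.234 and 3.91 ± 0.270 (SD, n = 4) for S phase and 2.43 ± 0.429, 2.87 ± 0.304 and 3.20 ± 0.288 for mitosis, in the order control, knockdown and rescue, with no test run on these means of chosen genes. Ad-Ctrl replicate 1 overlapped the knockdown group for both classes, and exceeded the lowest Ad-shmGULL+hGULL mouse for mitosis but not for S phase.

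The difference between the classes within a mouse stayed in one range. S phase minus mitosis was 0.71 ± 0.096 in Ad-Ctrl, 0.75 ± 0.131 in Ad-shmGULL and 0.72 ± 0.087 in Ad-shmGULL+hGULL (log2 units, SD, n = 4), and the groups overlapped. Its lowest value, 0.567, was that of Ad-Ctrl replicate 1, and its highest, 0.928, that of Ad-shmGULL replicate 4. In fold changes, the median of the S phase genes was 0.49 after knockdown and 0.79 in Ad-shmGULL+hGULL against control, beside 0.43 and 0.80 for the mitosis genes. These medians depend on the pseudocount. With 0.1 in place of 1 they were 0.535 and 0.86 for S phase and 0.525 and 0.932 for mitosis. Calls at an adjusted p under 0.05 in Ad-shmGULL+hGULL against control numbered 7 of 18 S phase and 2 of 28 mitosis genes (2.12% of all tested features). The study's threshold was passed by 14 of 18 and 25 of 28 (6.84% of all features). With median-of-ratios scaling, 0 genes of either class were called (0.0611% of all features). The 4 smallest changes of the S phase class, from 0.06 to 0.33, were those of Tk1, Gins1, Cdc6 and Mcm7, and its range reached 1.43, while the mitosis genes ran from 0.33 to 1.02.

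**Figure D5:**
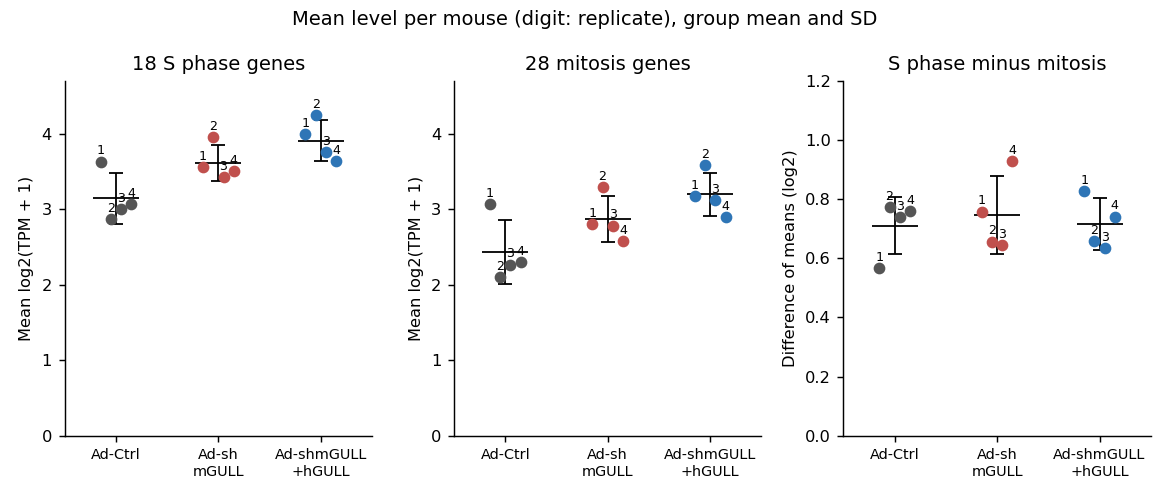
Mean log2(TPM + 1) per mouse over the 18 S phase genes (left) and the 28 mitosis genes (middle), and their difference (right), with digits for replicates and bars for the group mean and SD (n = 4). Group means are 3.14, 3.61 and 3.91 for S phase and 2.43, 2.87 and 3.20 for mitosis, and the differences overlap between groups.

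The number of genes called depended on single mice, most of all on Ad-Ctrl replicate 1. Without it, 14 of 47 genes were called after knockdown (4.74% of all tested features) and 33 passed the study's threshold (7.81%), the called ones being Mcm2, Mcm3, Mcm6, Cdt1, Rrm1, Rrm2, Ccne2, E2f1, Aurka, Cdc20, Ube2c, Kif20a, Tpx2 and Hmmr. In Ad-shmGULL+hGULL against control, 38 of 47 were then called (6.38% of all features) and 41 passed the study's threshold (9.58%). The log2 fold change of Rrm2 became 1.39 after knockdown and 1.52 in Ad-shmGULL+hGULL, and that of Mcm6 became 1.16 and 1.57. Genes not called in either comparison without that mouse were Mcm7, Cdc6, Gins1, Tk1, Ccnd1, Melk, Bub1, Birc5 and Kif23. Leaving out any 1 of the other 3 controls left 0 of 47 called in each comparison with control, with 10 to 12 past the study's threshold after knockdown and 30 to 36 in Ad-shmGULL+hGULL. The share of all features called higher was then 0.766 to 0.89% after knockdown and 0.0183 to 0.0304% in Ad-shmGULL+hGULL, and the share past the study's threshold 3.93 to 5.74% and 4.77 to 7.38%. Mice outside a comparison also enter its shared spread: against control, Ad-shmGULL+hGULL had 16 calls without Ad-shmGULL replicate 1, 23 without replicate 2, 13 without replicate 3 and 0 without replicate 4, and 0 without any 1 of its own mice. Calls over the whole table moved in the same settings, to 5.11%, 5.54%, 3.81% and 0.146% of all features without Ad-shmGULL replicates 1 to 4 and to between 0.0244 and 0.0366% without a rescue mouse. After knockdown there were 0 calls without Ad-shmGULL replicate 1 or 2, 2 without replicate 3 and 1 without replicate 4, 0 without Ad-shmGULL+hGULL replicate 1 or 3 and 1 without replicate 2 or 4. All features called higher were 1.94%, 0.778%, 4.96% and 1.28% without Ad-shmGULL replicates 1 to 4, and 1.44 to 1.58% without a rescue mouse. Without Ad-shmGULL replicate 2, 10 genes passed the study's threshold after knockdown (3.99% of all features).

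Further genes of the same processes were taken from lists that do not overlap the 47. Of 40 listed S phase genes, 37 were tested, and in Ad-shmGULL+hGULL against control 4 were called higher, 18 passed the study's threshold upwards and 0 downwards, with a median log2 fold change of 0.50. Over all tested features 2.12% were called higher there and 6.84% passed that threshold upwards, with a median of 0.17. The called ones were Prim1, of the primase (log2 fold change 0.79, SE 0.16, adjusted p = 0.03899), Chaf1b, of a histone chaperone that works at the fork (log2 fold change 0.84, SE 0.18, adjusted p = 0.0426), Brca1, a DNA repair gene (log2 fold change 0.76, SE 0.17, adjusted p = 0.04697), and Rfc5, of the clamp loader (log2 fold change 0.58, SE 0.12, adjusted p = 0.0426). After knockdown, 0 of the 37 were called in limma, 12 had an unadjusted P under 0.05 and 4 passed the study's threshold upwards (5.35% of all tested features). Of 48 listed mitosis genes 46 were tested, and Ckap2 and Ckap2l, a pair of spindle proteins, were called in Ad-shmGULL+hGULL against control, with log2 fold changes of 1.04 (SE 0.24, adjusted p = 0.04697) and 1.01 (SE 0.22, adjusted p = 0.0426). There 32 passed the study's threshold upwards and the median was 0.61. After knockdown 0 of the 46 were called, 16 had an unadjusted P under 0.05 and 12 passed the study's threshold upwards. From knockdown to rescue 0 genes of either list were called, with 6 and 0 at an unadjusted P under 0.05. The share of all tested features with such a P was 20.2% after knockdown and 10.7% from knockdown to rescue. How calls of genes outside the 47, here and below, fared under other settings is not given. In Ad-shmGULL+hGULL against control, 348 of all tested features were called higher, but 10 with median-of-ratios scaling or quantile normalization. Leaving out Ad-Ctrl replicate 2, 3 or 4, or any 1 rescue mouse, left 3 to 6.

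Among brakes of the cycle, Wee1 was called higher in both comparisons with control, and E2f8 only in Ad-shmGULL+hGULL against control. Wee1, the kinase that holds CDK1 inactive, measured 26.9, 16.8, 19.8 and 17.4 TPM in Ad-Ctrl, 39.95, 42.3, 30.4 and 32.2 TPM in Ad-shmGULL and 40.96, 35.6, 37.5 and 28.97 TPM in Ad-shmGULL+hGULL, every mouse with the knockdown virus lying above every control. The log2 fold change was 0.82 (SE 0.16, adjusted p = 0.0194) after knockdown and 0.81 (SE 0.16, adjusted p = 0.03899) in Ad-shmGULL+hGULL. E2f8, a repressor of E2F targets, measured 10.2, 6.45, 9.39 and 9.404 TPM in Ad-Ctrl, 11.9, 19.2, 7.05 and 13.7 TPM in Ad-shmGULL and 18.2, 25.4, 15.5 and 23.4 TPM in Ad-shmGULL+hGULL. Its knockdown mice overlapped the controls, and its log2 fold change in Ad-shmGULL+hGULL against control was 1.12 (SE 0.25, adjusted p = 0.0435). Wee1 and E2f8 were the called genes of 26 tested brakes and G1 regulators of 28 listed, of which 7 passed the study's threshold upwards after knockdown and 9 in Ad-shmGULL+hGULL (5.35% and 6.84% of all tested features, with 2.44% and 2.12% called higher). Cdkn1a, the p21 inhibitor of cyclin-dependent kinases, named here after its values were seen, measured 24.3, 8.96, 14.2 and 20.5 TPM in Ad-Ctrl, 56.3, 55.3, 21.8 and 31.98 TPM in Ad-shmGULL and 40.8, 52.98, 30.7 and 39.6 TPM in Ad-shmGULL+hGULL. Its log2 fold changes, 1.22 (SE 0.33, adjusted p = 0.0624) and 1.28 (SE 0.33, adjusted p = 0.0571), passed the study's threshold but not the adjusted one.

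Bulk liver RNA mixes cell types, and fewer cells of a type cannot be told apart from less RNA per cell. Hepatocyte markers were abundant in every mouse, with 45790 to 73620 TPM of Alb and 10680 to 15490 TPM of Apoa2, and their sum over 10 genes ran from 95230 to 135000 TPM in Ad-Ctrl, 95470 to 116200 in Ad-shmGULL and 85610 to 101400 in Ad-shmGULL+hGULL. None of the 10 was called in limma in any comparison. After knockdown 8 of 10 were below their control level, 4 of 10 had an unadjusted P under 0.05 (20.2% of all features), Apoa1, Tat and Fgb passed the study's threshold downwards (2.3%), and the median log2 fold change was -0.20. In Ad-shmGULL+hGULL against control 9 of 10 were below 0, 4 had such a P (25.3% of all features), Apoa1 and Tat passed the threshold downwards (0.641%), and the median was -0.23. From knockdown to rescue 1 had such a P (10.7% of all features) and the median was 0.004. The sum of 18 T and NK cell markers was 139, 46.3, 58.9 and 78.5 TPM in the controls, 44.9, 95.6, 91.3 and 76.4 after knockdown, and 85.3, 107, 86.2 and 77.0 in Ad-shmGULL+hGULL, so that in each group the mouse highest for the cell cycle genes was also highest for these markers. The same mice were highest for the sum of 10 endothelial and stellate markers, at 295 TPM against 153 to 217 in the other controls, 314 against 246 to 251 after knockdown and 267 against 242 to 247 in Ad-shmGULL+hGULL. None of the 17 tested T and NK markers was called in any comparison in limma. In knockdown against control, rescue against knockdown and rescue against control, 0, 1 and 0 of them had an unadjusted P under 0.05. Of all features, 20.2%, 10.7% and 25.3% had such a P in the same order. Of the endothelial and stellate list, Stab2, a scavenger receptor of liver sinusoids, was called after knockdown (log2 fold change 0.54, SE 0.13, adjusted p = 0.0476). The median log2 fold change of that list was 0.38 after knockdown (0.43 for the 47 genes), with 9 of 10 values above 0 and 2 at an unadjusted P under 0.05, and 0.32 in Ad-shmGULL+hGULL against control (0.79 for the 47 genes), with 10 of 10 above 0 and 3 at such a P. From knockdown to rescue its median was -0.12, with 0 of 10 at such a P. No listed marker was at 0 in every mouse, and the part of hepatocytes and of these other cells in the results was not tested.

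None of the other marker lists had all 3 of these mice as the highest of their groups, but some had part of them. Cholangiocyte markers were highest in Ad-Ctrl replicate 1 and Ad-shmGULL replicate 2 within their groups, and B cell markers in Ad-Ctrl replicate 1 and Ad-shmGULL+hGULL replicate 2. Over the 12 mice, the most abundant T and NK markers were Nkg7 at 8.30 to 27.3 TPM and Ptprc at 6.54 to 17.3 TPM, and the most abundant stellate and endothelial markers were Dcn at 32.5 to 57.8 TPM and Stab2 at 26.2 to 60.7 TPM. The sum of 9 macrophage and Kupffer cell markers, led by Cd5l (208 to 436 TPM) and Lyz2 (127.0 to 170.5 TPM), was 541 to 875 TPM in Ad-Ctrl, 575 to 886 in Ad-shmGULL and 639 to 785 in Ad-shmGULL+hGULL. B cell markers, led by Ighm (9.10 to 38.7 TPM) and Cd79b (2.73 to 5.61 TPM), summed to 15.3 to 32.4, 25.9 to 50.2 and 21.7 to 29.8 TPM in the same order. Neutrophil markers, led by S100a9 (53.3 to 163 TPM) and S100a8 (31.9 to 96.5 TPM), summed to 111 to 246, 128 to 283 and 97.4 to 150 TPM, and erythroid markers, led by Hbb-bs (121 to 522 TPM) and Alas2 (66.9 to 116 TPM), to 268 to 753, 461 to 681 and 375 to 619 TPM. Cholangiocyte markers, led by Spp1 (45.0 to 123 TPM) and Sox9 (3.38 to 12.1 TPM), summed to 68.1 to 105, 56.9 to 140 and 83.1 to 118 TPM. In limma 0 genes of these 5 lists were called in any comparison. The lists had 9, 4, 5, 6 and 4 tested genes in the order above. Of these genes, 5, 5 and 0 had an unadjusted P under 0.05 in knockdown against control, rescue against knockdown and rescue against control. Among all tested features the shares were 20.2%, 10.7% and 25.3%. From knockdown to rescue, 0 tested B cell, neutrophil or erythroid markers had a log2 fold change above 0. Their medians were -0.373, -0.495 and -0.249, beside -0.038 and 0.099 for the macrophage and cholangiocyte lists. The part of these 5 lists in the results was not tested either.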

How the data were processed

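Liver RNA-Seq of 12 mice was grouped by sample title into 3 groups of 4. The authors trimmed reads with fastp 0.23.2, checked them with FastQC 0.11.8, aligned them with HISAT2 2.2.1.0 to GRCm38.p6, and deposited one table of TPM for all samples. The submitters' processing notes also name featureCounts of Subread 2.0. TPM hold no read numbers, so depth per mouse is unknown, and the fixed total means that a change in abundant transcripts moves all others.

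Values were analysed as log2(TPM + 1) for the 16378 features with a mean TPM of at least 1, with limma 3.58.1 in R 4.3.3, 1 model over 3 groups without covariates, empirical Bayes with a mean-variance trend, two-sided, and Benjamini-Hochberg adjustment over all tested features (threshold 0.05). The study's own threshold asks for an unadjusted P under 0.05 and a change of more than 0.5 on the log2 scale. Fold changes of genes with low TPM are understated on this scale. The code was tested on simulated data. Summaries and figures used Python 3.11.15 with pandas 2.3.3 and matplotlib 3.10.9. Promoter sequences were RefSeq's. The genes and lists were chosen with earlier results of these data known. Per-mouse values are given for the genes with an adjusted p under 0.05 and for 20 cell cycle genes of a fixed list. Of the other lists, genes with an adjusted p under 0.05 and the 2 most abundant markers of each cell type are named. Same-numbered mice share only a number. The labels do not say whether the libraries come from separate handling days, so p-values measure the spread between these mice. Alternatives were no filter, a filter at a mean of 5 TPM, 0.1 as the pseudocount, median-of-ratios scaling, quantile normalization, only the 2 groups compared, no trend, a replicate block, and leaving out each mouse. No column was left out.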

Additional observations from a re-analysis of the deposited data

Results flagged for a closer look

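Within groups of 4 mice, 75 sets of values were examined with Dixon's gap ratio, which by chance picks out about 1 in 20 sets, or 3.75 of these. It picked out 8, and 6 of them were Ad-Ctrl replicate 1. In that mouse Ccna2 was at 11.34 TPM, Hmmr at 5.484 TPM, Mcm5 at 12.13 TPM, Top2a at 16.22 TPM and Uhrf1 at 8.313 TPM, each far above the other 3 controls, and its S phase minus mitosis level, 0.567, was far below them. The genes share the mouse, so these are not separate events. Mcm4 at 17.47 TPM in Ad-shmGULL replicate 2 and Plk1 at 17.09 TPM in Ad-shmGULL+hGULL replicate 2 stood above the other mice of their groups in the same way.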

How the results depend on the processing

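Directions were steady for most genes, and counts of calls were not. For knockdown against control, where 1 gene was called, the number was 2 with a pseudocount of 0.1 or a mean TPM of at least 5 (38 genes tested), and 0 with no filter, only the 2 groups compared or no mean-variance trend. For Ad-shmGULL+hGULL against control, where 9 were called, it was 16 with a mean TPM of at least 5, 21 with only the 2 groups compared, and 0 with no filter, median-of-ratios scaling, quantile normalization or no trend. Without a filter the adjustment covers more features. Calls over the whole table moved too. Of all tested features, 399 were called higher after knockdown and 407, 476, 180, 27 and 264 in the order of settings above, and 348 in Ad-shmGULL+hGULL against control and 562, 1635, 7, 10, 10 and 34. The number past the study's threshold was 11 with median-of-ratios scaling and 10 with quantile normalization for knockdown against control (17 as reported), and 1 with either scaling for Ad-shmGULL+hGULL against Ad-shmGULL (3 as reported). Leaving out 1 mouse gave 0 to 14 calls and 10 to 33 genes past the study's threshold for knockdown against control, 0 to 38 calls and 30 to 41 genes for Ad-shmGULL+hGULL against control, and 0 calls and 0 to 13 genes between the groups with knockdown, the 13 without Ad-shmGULL replicate 2.

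A few small changes turned sign. Between the groups with knockdown, Cdt1 was at -0.018 with median-of-ratios scaling and -0.032 with quantile normalization, and Tk1 against control in Ad-shmGULL+hGULL was at -0.129 and -0.113. Leaving out each mouse in turn, the change between the groups with knockdown ran from -0.047 to 0.21 for Cdt1, from -0.017 to 0.28 for Rrm2 and from -0.072 to 0.058 for Ccnd1, and the change of Tk1 after knockdown ran from -0.183 to 0.014. Under at least 1 alternative or left-out mouse the sign also turned for Mcm7 (0.07, lowest -0.04), Melk (0.07, lowest -0.06) and Gins1 (-0.03, highest 0.05) after knockdown, for Gins1 against control in Ad-shmGULL+hGULL (0.17, lowest -0.03), and for Cdc6 (0.09, lowest -0.10) and Aurka (0.19, lowest -0.01) between the groups with knockdown.

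Same-numbered mice did not deviate together (correlations of their deviations from group means from -0.244 to 0.154), so the numbers do not pair the mice. With a replicate block, 2 genes were called after knockdown, 3 in Ad-shmGULL+hGULL against control and 0 between the groups with knockdown, with 304, 69 and 0 of all features called higher. The cause of these differences was not tested. Depth, unknown from TPM, sets no interval here.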
